A study of Homo sapiens with 10 samples.

Results

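MYC peaks that carried H3K27ac and no methylation mark were described in the T-ALL line RPMI-8402 by CUT&RUN. T-ALL is T-cell acute lymphoblastic leukaemia, and RPMI-8402 is an established human line. In this assay an antibody tethers a nuclease to its target in permeable cells, and the DNA cut free beside the target is sequenced. Of the 18018 MYC peaks of set D on the autosomes and chromosome X, 2267 (12.6%, exact 95% interval 12.1 to 13.1%) made up the group. They were chosen by overlap: each shared at least 1 bp with an H3K27ac region of set C and none with an H3K4me1 region of set C or an H3K4me3 region of set B. That share and the absence of both methylation marks are therefore descriptions of the choice. The other lists used were MYCN of set A and MYC of set C, which played no part in the choice. All libraries came from this 1 line, whose labels name no drug or genetic change, and 4 IgG control libraries, 1 in each of the 4 sets, were not used here.

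MYC binds DNA as a dimer with MAX, preferably at E-box sequences, and MYCN is its close relative with the same partner. H3K27ac is written by the acetyltransferases CBP and p300 at active promoters and enhancers. H3K4me3 marks active promoters, which are often CpG islands, and H3K4me1 is spread over enhancers and the shoulders of promoters. Sites with acetylation and neither methylation mark are not part of either textbook definition. No gene annotation or genome sequence of the files' build, hg19, was used here, so sites are given by position alone.

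Every list came from 1 library, so nothing here has a replicate check. The intervals below are exact binomial intervals for shares, Newcombe intervals for differences between shares and order-statistic intervals for medians. They cover counting error over listed peaks, which are not replicates, and no p-value is given. The lists hold positions without read counts or scores, so the depth is unknown.

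H3K27ac-only MYC peaks were narrow. Their median width was 335 bp (quartiles 246 and 472 bp), against 340.5 bp (253 and 458 bp) for the 2986 MYC peaks with H3K27ac and H3K4me1 (the H3K27ac/H3K4me1 peaks). The 6401 MYC peaks with H3K27ac and H3K4me3 (the H3K27ac/H3K4me3 peaks) had a median of 592 bp (421 and 794 bp), and the 1899 MYC peaks with no mark one of 279 bp (223 and 371 bp). The intervals of the medians of H3K27ac-only and H3K27ac/H3K4me1 peaks overlapped (327 to 343 bp and 334 to 346 bp). The median over all MYC set D peaks was 422 bp. H3K27ac-only peaks made up 18.96% of the narrowest of 10 width groups of MYC peaks (186 to 220 bp) and 3.77% of the widest (844 to 3268 bp). The fall was shared by H3K27ac/H3K4me1 peaks (22.1% and 4.10%) and peaks with no mark (25.1% and 1.11%), whereas H3K27ac/H3K4me3 peaks rose from 11.1% to 73.6%.

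The acetylation lay over the MYC peak itself in most cases. The centre of 1967 H3K27ac-only peaks (86.8%, 85.3 to 88.1%) lay in the H3K27ac region, and 1229 (54.2%, 52.1 to 56.3%) were wholly inside it. Only 30 (1.32%) had less than 10% of their bases under H3K27ac. Among H3K27ac/H3K4me1 peaks 63.1% were wholly inside, and among H3K27ac/H3K4me3 peaks 32.7%. The acetylated regions themselves were of like size: the median width at H3K27ac-only peaks was 835 bp (interval 808 to 873 bp), at H3K27ac/H3K4me1 peaks 831.5 bp (809 to 854 bp) and at H3K27ac/H3K4me3 peaks 800 bp (784 to 815 bp).

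**Figure D1:**
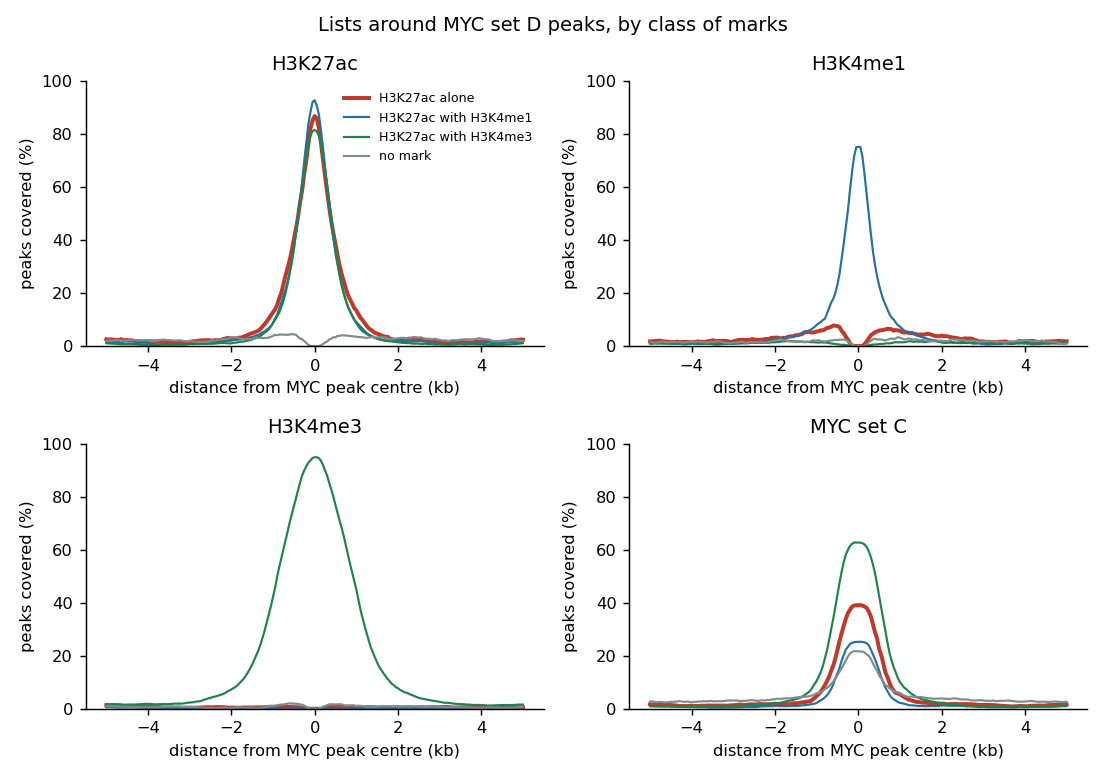
Share of MYC set D peaks covered by a region of each list (y axis, percent) against distance from the MYC peak centre (x axis, kb), for H3K27ac-only peaks (red), H3K27ac/H3K4me1 peaks (blue), H3K27ac/H3K4me3 peaks (green) and peaks with no mark (grey). Around H3K27ac-only peaks H3K4me1 is lowest at the centre and highest, at 6.93%, 600 bp away.

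The group met 2241 H3K27ac regions, of which 2214 held 1 such peak and 27 held 2. For 1678 peaks (74.0%, 72.2 to 75.8%) the acetylated region met no listed region of either methylation mark anywhere along its length. The H3K4me1 regions had a median width of 324 bp and covered 15.9 Mb, against 551 bp and 25.9 Mb for H3K27ac. A mark missing here is one not called, and signal below the calling limit was not tested. For the other 589 (26.0%, 24.2 to 27.8%) the mark was absent from the MYC peak but present elsewhere in the same H3K27ac region: H3K4me1 for 546, H3K4me3 for 33 and both for 10. In the 546 the acetylated region had a median width of 1367.5 bp and the nearest H3K4me1 region began a median of 242 bp from the peak. Where neither mark was met the median width was 698 bp, and H3K4me1 lay a median of 7877 bp away. A wider region meets other lists more readily by construction.

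H3K4me1 was the nearer mark for most of the group. The median number of bases between an H3K27ac-only peak and the nearest H3K4me1 region was 3753 (interval 3197 to 4430, quartiles 646 and 18537). To the nearest H3K4me3 region the median was 72636 bases (67871 to 77076, quartiles 23619 and 192485). H3K4me1 was nearer at 1960 peaks (86.5%, 85.0 to 87.8%) and H3K4me3 at 307. The H3K4me1 list held 39503 regions and the H3K4me3 list 13852, and more regions shorten distances by construction. The order was the same at peaks with no mark, with medians of 13991 bases to H3K4me1 and 77900 to H3K4me3. The nearest regions of the 2 marks lay on the same side of 1186 peaks (52.3%, 50.2 to 54.4%).

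H3K4me3 lay within 1 kb of 65 H3K27ac-only peaks (2.87%), within 10 kb of 275 (12.1%) and within 100 kb of 1336 (58.9%). H3K4me1 lay within 1 kb of 717 (31.6%), within 10 kb of 1509 (66.6%) and within 100 kb of 2063 (91.0%). Both marks within 10 kb were found at 210 peaks, and 693 had neither within 10 kb.

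The order of H3K27ac-only and H3K27ac/H3K4me1 peaks in their distance to H3K4me3 turned round with the distance. H3K4me3 lay within 1 kb of 2.87% of H3K27ac-only peaks (2.22 to 3.64%), against 1.14% of H3K27ac/H3K4me1 peaks (0.790 to 1.59%) and 5.27% of peaks with no mark (4.30 to 6.37%). Within 5 kb the share was 6.93% of H3K27ac-only peaks (5.91 to 8.05%), 4.25% of H3K27ac/H3K4me1 peaks (3.56 to 5.04%) and 8.79% of peaks with no mark (7.56 to 10.2%). Within 10 kb it was 12.1% of H3K27ac-only peaks and 12.2% of H3K27ac/H3K4me1 peaks, a difference of -0.06 percentage points (-1.83 to 1.74). The difference from peaks with no mark, 15.1% of which had H3K4me3 that close, was -2.98 points (-5.10 to -0.90). Within 100 kb the share was 58.9% of H3K27ac-only peaks (56.9 to 61.0%), against 66.9% of H3K27ac/H3K4me1 peaks (65.2 to 68.6%). The median for H3K27ac/H3K4me1 peaks was 53850 bases (50564 to 57205). For peaks with no mark it was 77900 bases (68948 to 87000), whose interval overlaps that of the H3K27ac-only peaks.

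H3K4me1 lay nearby more often at H3K27ac-only peaks than at peaks with no mark or H3K27ac/H3K4me3 peaks. It lay within 1 kb of 31.6% of them, against 14.1% of the peaks with no mark, a difference of 17.6 points (15.1 to 20.02). Against the H3K27ac/H3K4me3 peaks, 8.90% of which had H3K4me1 within 1 kb, the difference was 22.7 points (20.7 to 24.8). That class was chosen to meet H3K4me3 and not H3K4me1, and H3K4me3 still covered 43.6% of it 1000 bp from the centre. The part of this choice in the difference was not tested. Within 2 kb, H3K4me1 stood on both sides of 127 H3K27ac-only peaks (5.60%, 4.69 to 6.63%) and on 1 side of 825 (36.4%, 34.4 to 38.4%). The same arrangement on both sides was found at 1.58% of the peaks with no mark (1.07 to 2.25%) and 0.578% of H3K27ac/H3K4me3 peaks (0.407 to 0.796%). In the profile around the peak centre H3K4me1 covered none of the H3K27ac-only peaks at 0 bp, 6.70% at 500 bp and 5.65% at 1000 bp, and 1.79% at 5000 bp; the value at the centre follows from the choice.

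**Figure D2:**
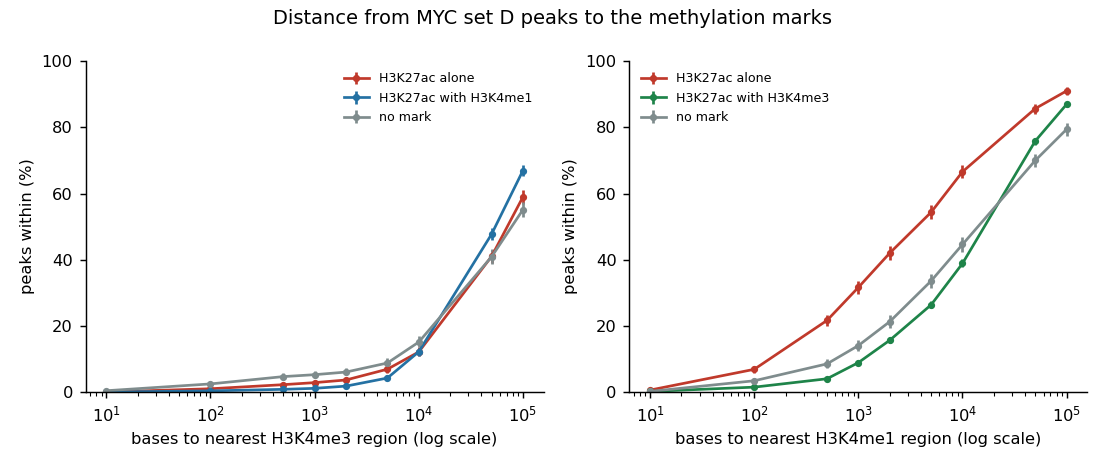
Share of MYC set D peaks (y axis, percent) with an H3K4me3 region (left) or an H3K4me1 region (right) within a given number of bases (x axis, log scale); bars are exact 95% binomial intervals. For H3K4me3 the curve of H3K27ac-only peaks (red) lies at 2.87% at 1 kb, above H3K27ac/H3K4me1 peaks (1.14%) and below peaks with no mark (5.27%). For H3K4me1 it lies at 31.6% at 1 kb, above peaks with no mark (14.1%) and H3K27ac/H3K4me3 peaks (8.90%).

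Some peaks lay close to the limits of the rule on either side. Just inside it, 15 H3K27ac-only peaks had a methylation mark within 10 bp and 177 within 100 bp, and in 4 of them no base lay between the peak and an H3K4me1 region. The 10 nearest to H3K4me3 were between 7 and 49 bases from it. Just outside it, 21 H3K27ac/H3K4me1 peaks touched H3K4me1 over at most 10 bp and 289 over at most 100 bp. For H3K4me3 the same was true of 3 and 71 H3K27ac/H3K4me3 peaks. On the side of acetylation, 6 H3K27ac-only peaks met H3K27ac over at most 10 bp and 131 over at most 100 bp, while 10 peaks with no mark had H3K27ac within 10 bp and 73 within 100 bp. The share of H3K27ac-only peaks was 8.32% when any methylation mark within 1 kb was also barred, 5.36% when the margin was 5 kb, and 28.0% when only the regions at or above the median width of both methylation lists were used.

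MYC of set C was found at H3K27ac-only peaks more often than at H3K27ac/H3K4me1 peaks of the same width. It overlapped 890 of the 2267 (39.3%, 37.2 to 41.3%), against 45.1% of all MYC set D peaks. The share was 25.5% at H3K27ac/H3K4me1 peaks (23.9 to 27.1%), 63.6% at H3K27ac/H3K4me3 peaks (62.4 to 64.7%) and 21.9% at peaks with no mark (20.01 to 23.8%). The difference was 13.8 points from H3K27ac/H3K4me1 peaks (11.2 to 16.3), -24.3 points from H3K27ac/H3K4me3 peaks (-26.6 to -22.0) and 17.4 points from peaks with no mark (14.6 to 20.1). The headers of the MYC lists name a single signal track for both, and the lists come from different callers, so this overlap is no replication.

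At equal widths the difference from H3K27ac/H3K4me3 peaks was smaller and that from H3K27ac/H3K4me1 peaks changed little. When the other class was weighted to the widths of the H3K27ac-only peaks, the difference from H3K27ac/H3K4me1 peaks was 13.1 points (10.7 to 15.6), and the H3K27ac-only share was the higher in all 10 width groups. From H3K27ac/H3K4me3 peaks the weighted difference was -10.2 points (-12.9 to -7.62), and from peaks with no mark 13.0 points (10.1 to 16.0). Among the narrowest peaks set C overlapped 19.9% of H3K27ac-only peaks (15.8 to 24.6%), 15.6% of H3K27ac/H3K4me1 (12.2 to 19.5%) and 38.5% of H3K27ac/H3K4me3 ones. In the seventh width group, 490 to 571 bp, set C overlapped 58.7% of H3K27ac-only peaks (51.4 to 65.8%), 37.5% of H3K27ac/H3K4me1 peaks (31.7 to 43.7%) and 59.5% of H3K27ac/H3K4me3 peaks. The H3K27ac-only peaks at or above the median width of the whole list, 757 of them, met set C in 60.4% of cases (56.8 to 63.9%). Set C met more of the other classes at such widths too, so this is no like-width comparison with the 39.3% above. In the widest group it met 76.5% of H3K27ac-only, 82.6% of H3K27ac/H3K4me3 and 48.6% of H3K27ac/H3K4me1 peaks.

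**Figure D3:**
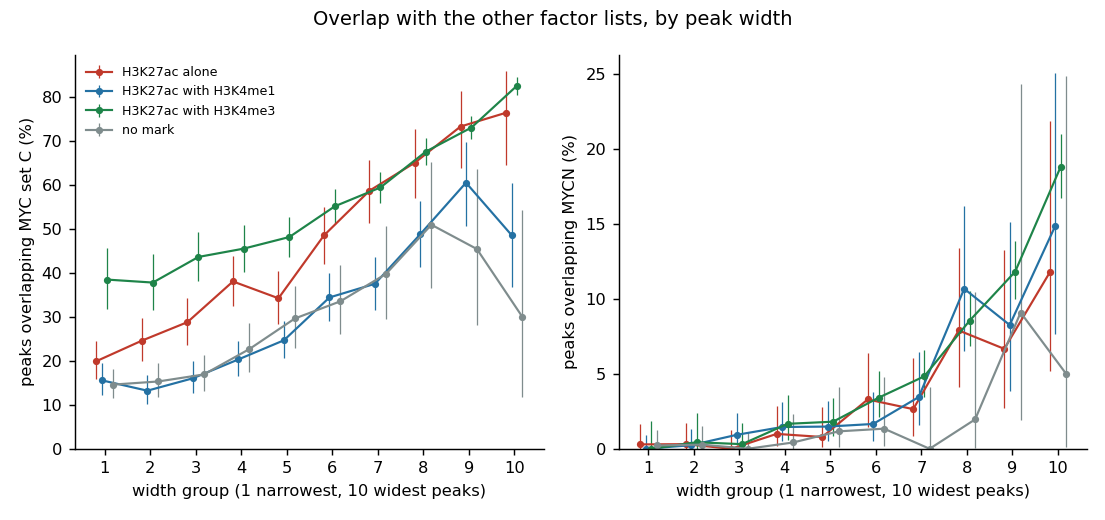
Share of MYC set D peaks overlapping MYC set C (left) and MYCN (right), in percent, by width group of the MYC peak, with exact 95% binomial intervals; the 10 groups hold between 1753 and 1854 peaks each. In MYC set C the H3K27ac-only peaks (red) lie above H3K27ac/H3K4me1 peaks (blue) in all 10 groups, and in MYCN the intervals of the classes overlap widely.

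Where set C named an H3K27ac-only peak, its block of highest signal mostly touched that peak. Each set C region carries the position of its block of highest signal, which touched the set D peak in 788 of 890 cases (88.5%, 86.3 to 90.6%). The median distance between the centre of the block and that of the peak was 88.75 bp (interval 83.5 to 97.5 bp). For H3K27ac/H3K4me1 peaks the block touched the peak in 90.1% (87.8 to 92.2%), for H3K27ac/H3K4me3 peaks in 92.1% (91.3 to 92.9%) and for peaks with no mark in 78.1% (73.8 to 82.0%). Since both lists name a single signal track, the position of the block is no independent check of the peak. The set C regions were wider than the set D peaks, with a median of 1116.5 bp, and 851 of the 890 (95.6%) met no set D peak but that 1. Of the 890, 722 (81.1%, 78.4 to 83.6%) lay in set C regions that touched no methylation mark either, 141 in regions that reached H3K4me1, 21 in regions that reached H3K4me3 and 6 in regions that reached both. Applied to set C itself, the same rule gave 1051 of 9498 regions (11.1%, 10.4 to 11.7%), of which 715 (68.0%) met an H3K27ac-only peak of set D.

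MYCN was rare at these sites, as it was at MYC set D peaks as a whole. The MYCN list held 895 regions, of which 48 (5.36%) met an H3K27ac-only peak. MYCN overlapped 47 H3K27ac-only peaks (2.07%, 1.53 to 2.75%), against 4.72% of all MYC set D peaks, 2.34% of H3K27ac/H3K4me1 peaks (1.83 to 2.95%), 8.42% of H3K27ac/H3K4me3 peaks (7.75 to 9.13%) and 0.632% of peaks with no mark (0.327 to 1.10%). The difference from H3K27ac/H3K4me1 peaks was -0.27 points, with an interval from -1.06 to 0.56 that takes in both directions. The difference from H3K27ac/H3K4me3 peaks was -6.35 points (-7.22 to -5.41), but -0.91 points (-1.59 to -0.22) at equal widths. From peaks with no mark it was 1.44 points (0.75 to 2.17), and 0.97 points (0.09 to 1.85) at equal widths. The wider 757 met MYCN in 5.28% of cases (3.80 to 7.13%). Wide peaks of other classes also met it more often. In the widest width group MYCN met 11.8% of H3K27ac-only, 18.8% of H3K27ac/H3K4me3 and 14.9% of H3K27ac/H3K4me1 peaks.

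The sites with both other lists were wide and lay in wide acetylated regions. MYCN and MYC of set C were both present at 30 H3K27ac-only peaks, set C without MYCN at 860, MYCN alone at 17 and neither at 1360. Both were present at 1.32% of H3K27ac-only peaks, against 3.45% of all MYC set D peaks, and neither at 60.0%, against 53.7%. The median peak width was 642.5 bp (interval 553 to 738 bp) with both, 421 bp (398 to 434 bp) with set C alone and 300 bp (292 to 309 bp) with neither. A wider peak overlaps other lists more readily by construction. The H3K27ac region around the peaks had a median width of 1317 bp with both, 1089.5 bp with set C alone and 707 bp with neither. Peaks met by set C were also nearer to the methylation marks. The median to H3K4me1 was 2563 bases with set C, against 5097 without it, and the median to H3K4me3 was 59895.5 bases with set C, against 80386 without it. The 30 peaks with both lists had medians of 1277 bases to H3K4me1 and 78901 to H3K4me3. With neither list these were 5145 and 80488 bases, so for H3K4me3 the 30 lay close to the peaks with neither.

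The 10 widest peaks with both lists were as follows. On hg19 the widest was on chromosome 22 from 19878971 to 19879936 (966 bp), with H3K4me1 3890 bases and H3K4me3 35436 bases away. The next, on chromosome X from 106984934 to 106985883 (950 bp), lay wholly in an H3K27ac region of 1387 bp, with H3K4me1 469 bases away. That on chromosome 7 from 74987947 to 74988861 was 82251 bases from H3K4me3, and that on chromosome 5 from 69005958 to 69006846 was 150039 bases from it and 280886 bases from H3K4me1. On chromosome 20 there were 2, from 58633251 to 58634127 and from 39510580 to 39511417. The second of these lay in an H3K27ac region of 2693 bp that met H3K4me1 84 bases from the peak. The remaining 4 of these 10 were on chromosomes 16, 10, 5 and 8, and the peak on chromosome 5 from 156698628 to 156699382 was the nearest of the 10 to H3K4me3, at 4300 bases. Of the 10, 8 had an acetylated region that met no listed region of either methylation mark.

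Among the 10 widest H3K27ac-only peaks, 7 met MYC of set C and 0 met MYCN. In the widest width group as a whole, set C met 76.5% of H3K27ac-only peaks (64.6 to 85.9%) and MYCN 11.8% (5.22 to 21.9%), so these counts do not set the 10 apart. The widest was on chromosome 2 from 8039485 to 8041003 (1519 bp), but the H3K27ac region it met was 799 bp wide. Next came that on chromosome 1 from 212808734 to 212810221 (1488 bp), in an acetylated region of 1921 bp with H3K4me1 1846 bases away. A peak of 1376 bp on chromosome 6 from 33872024 to 33873399 followed, in an acetylated region of 2305 bp with H3K4me1 1582 bases away. The 3 that set C missed were on chromosome 16 from 46390942 to 46392294 and from 46432274 to 46433511, and on chromosome 7 from 61079373 to 61080678.

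Peaks more than 10 kb from both methylation marks met set C less often than nearer ones, and the acetylated region was narrower the farther the marks. H3K27ac-only peaks were sorted by the gap to the nearer of the 2 marks. Of the 768 within 1 kb, 40.6% met set C (37.1 to 44.2%), and of the 806 between 1 and 10 kb, 47.4% (43.9 to 50.9%). The share was 29.6% (25.8 to 33.7%) of the 530 between 10 and 100 kb and 23.9% (17.6 to 31.2%) of the 163 beyond. The median width of the acetylated region in the same order was 1101, 764.5, 697 and 642 bp, whereas the MYC peaks themselves had medians of 345.5, 340, 317.5 and 324 bp. A wide acetylated region more readily reaches a mark near the peak. The 546 peaks whose region met H3K4me1 alone had a median region width of 1367.5 bp and a median gap of 242 bp to it. Their part in the order of widths was not tested.

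**Figure D4:**
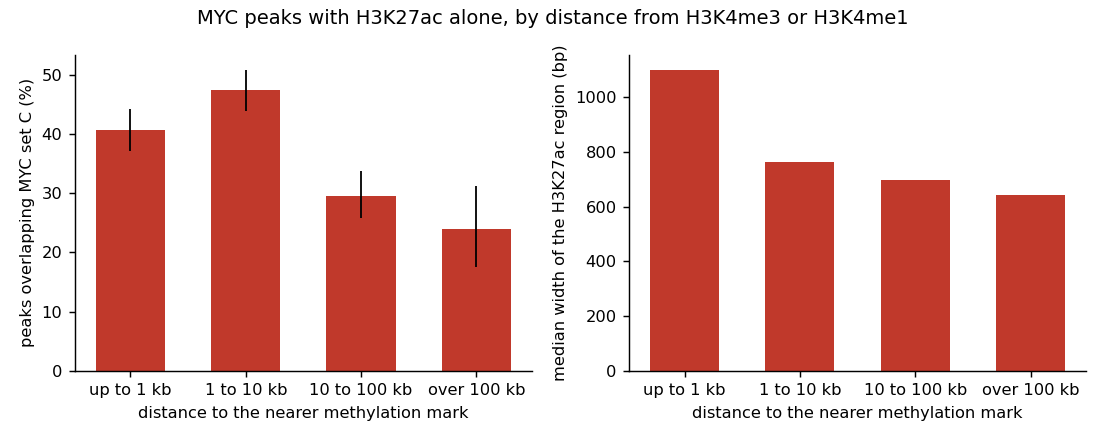
Left, share of H3K27ac-only MYC peaks overlapping MYC of set C (percent, exact 95% binomial intervals); right, median width of their H3K27ac region (bp); both by distance to the nearer of H3K4me3 and H3K4me1. The set C share is highest, at 47.4%, between 1 and 10 kb, and the acetylated region is widest, at 1101 bp, within 1 kb.

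The 10 peaks farthest from both marks included 6 from a single place on chromosome 8, where 6 H3K27ac-only peaks between 46844126 and 46854367 shared 4 H3K27ac regions, at least 1318838 bases from H3K4me3 and 1422409 bases from H3K4me1, and met neither MYC of set C nor MYCN. The farthest of all was on chromosome 13 from 85229861 to 85230188, in an H3K27ac region of 1592 bp, with H3K4me3 3091177 bases and H3K4me1 4312749 bases away, and it met MYC of set C. The peak on chromosome 5 from 46333740 to 46334265 met MYC of set C as well. Those from 62673374 to 62673610 on chromosome 16 and from 79541621 to 79541843 on chromosome 7 did not.

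H3K27ac-only peaks lay singly for the most part, and so did the other classes compared. No other MYC peak of set D lay within 10 kb of 73.0% of H3K27ac-only peaks and 76.6% of H3K27ac/H3K4me1 peaks. The share was 75.1% of H3K27ac/H3K4me3 peaks and 71.9% of peaks with no mark. When H3K27ac-only peaks alone were joined across gaps of up to 10 kb, 2023 (89.2%) stood alone. There were 103 runs of 2 and 10 runs of 3 or more, with 38 peaks in those 10. The nearest other MYC peak was a median of 26598 bases away (interval 23941 to 28151). That median was 23499.5 bases for H3K27ac/H3K4me1 peaks, 28428 for H3K27ac/H3K4me3 peaks and 27152 for peaks with no mark. The nearest MYC peak was itself H3K27ac-only for 552 H3K27ac-only peaks (24.3%, 22.6 to 26.2%), a class that made up 12.6% of all MYC peaks. It was H3K27ac/H3K4me1 for 500 (22.1%, 20.4 to 23.8%), a class that made up 16.6%, and had no mark for 288 (12.7%, 11.4 to 14.1%), against 10.5%. It was H3K27ac/H3K4me3 for 533 (23.5%, 21.8 to 25.3%), a class that made up 35.5%. How often peaks of the other classes had a nearest peak of their own class was not computed.

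After the run on chromosome 8, the longest runs were on chromosome 10 from 42388281 to 42398907, with 5, and on chromosomes 16, 17 and X, with 4 each. The run on chromosome 17 from 10018488 to 10031669 met MYC of set C at all 4 of its peaks. So did those on chromosome 1 from 149803618 to 149813248 and on chromosome X from 56794331 to 56805676, at all 3 peaks of each. The other 7 runs met it at 0 of their peaks, and across the 10 runs the share was 10 of 38 (26.3%), against 39.5% of the peaks outside them.

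Peaks were also set against the longest stretch of each chromosome that no list covered, which was 21.1 Mb on chromosome 1 and 11.1 Mb on chromosome 16. Within 1 Mb of an edge of such a stretch lay 51 H3K27ac-only peaks (2.25%, 1.68 to 2.95%), against 1.80% of all MYC set D peaks and 6.06% of those with no mark (5.03 to 7.22%). Set C met 10 of the 51 (19.6%, 9.82 to 33.1%). Near the edges it met 23.2% of H3K27ac/H3K4me1 peaks (13.0 to 36.4%), 53.8% of H3K27ac/H3K4me3 peaks (41.0 to 66.3%) and 39 of 115 peaks with no mark (33.9%, 25.3 to 43.3%). There the H3K27ac-only share was thus below that of peaks with no mark, opposite to the order over all peaks, though the intervals overlap. The 3 of the 10 widest H3K27ac-only peaks that set C missed, on chromosomes 16 and 7, all lay that close to such an edge. Without peaks near these edges the set C share was 39.7% and the difference from H3K27ac/H3K4me1 peaks 14.2 points (11.6 to 16.8). Only the longest stretch of each chromosome was used, so some runs that set C did not meet stayed in. These were the run on chromosome 8 and those on chromosome 1 from 564745, chromosome 2 from 92305591 and chromosome X from 61710577. The mappability of the sequence at the runs and edges was not tested.

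The share of MYC peaks with H3K27ac alone varied between chromosomes. It was highest on chromosome X, at 18.3% of 578 MYC peaks (15.3 to 21.7%), and chromosome 18, at 18.0% of 239 (13.3 to 23.5%). It was lowest on chromosome 19, at 4.39% of 1026 (3.22 to 5.83%), where H3K4me3 met 75.05% of MYC peaks, the highest share of any chromosome. The rule bars H3K4me3 and H3K4me1, so peaks with either cannot be H3K27ac-only, but their part in these differences was not tested. On chromosome X H3K4me3 met 54.7% of MYC peaks. There 47 of the 578 were H3K27ac/H3K4me1 peaks, a class that made up 16.6% of all MYC peaks. The other 20 chromosomes lay between 9.06% on chromosome 20 and 16.2% on chromosome 21. H3K4me3 met 49.6% of MYC peaks on chromosome 20, 43.8% on chromosome 21 and 56.1% on chromosome 18.

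**Figure D5:**
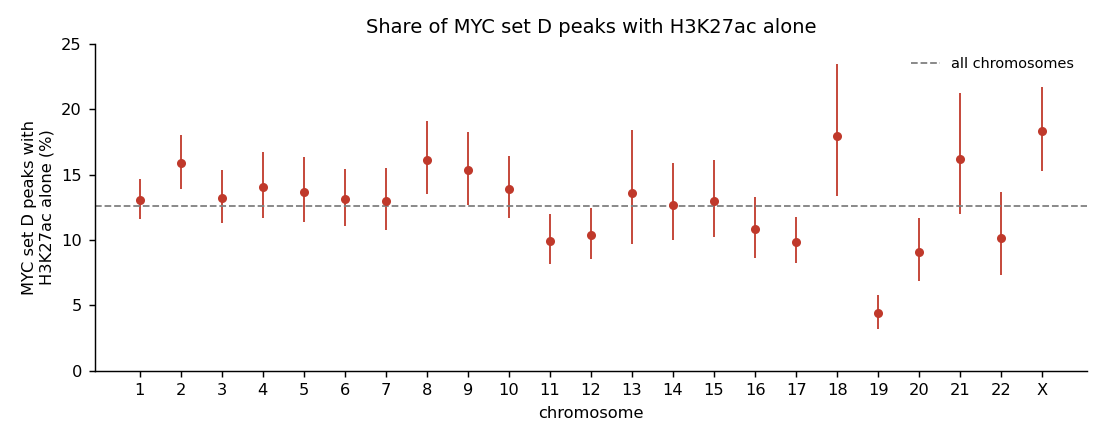
Share of MYC set D peaks with H3K27ac alone on each chromosome (y axis, percent), with exact 95% binomial intervals; the dashed line is the share over all chromosomes, 12.6%. Chromosome 19 lies lowest, at 4.39%, and chromosome X highest, at 18.3%.

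Seen from the acetylation, MYC occupied a minority of the regions without methylation marks. Of the 14044 H3K27ac regions that met neither mark, 1717 (12.2%, 11.7 to 12.8%) held a MYC peak of set D. The share over all 39528 H3K27ac regions was not computed, so 12.2% cannot be called low or high for acetylated regions. The 1717 had a median width of 678 bp (653 to 702 bp), against 351 bp (345 to 358 bp) for the 12327 without MYC. The part of width in what follows was not tested. With MYC the nearest H3K4me1 region was a median of 7278 bases away (6607 to 7913), and without MYC 12611 (12182 to 13121). For H3K4me3 the order was the reverse, with 72636 bases (67125 to 77671) with MYC and 59321 bases (57445 to 61242) without.

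The 5 acetylated regions that led those with 2 H3K27ac-only peaks were up to 3439 bp wide. The widest, on chromosome 4 from 10094739 to 10098177, met no methylation mark and had H3K4me1 1877 bases away. Those on chromosome 2 from 37780791 to 37783311 and chromosome 1 from 1676070 to 1678383 met no methylation mark, and MYC of set C overlapped all 3. The region on chromosome 5 from 159687352 to 159690014 met H3K4me1 beside its MYC peaks. That on chromosome 19 from 27731928 to 27734117 also met H3K4me1, at a further MYC peak of set D that is therefore not H3K27ac-only. Neither of these regions held MYC of set C.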

How the data were processed

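The lists the authors deposited hold positions alone. The submitters' processing notes name hg19, MACS2 and SEACR. MYC of set D comes from MACS2 on reads treated as unpaired and MYC of set C from SEACR in stringent mode, per the file headers. H3K4me3 comes from MACS2 and MYCN from cutruntools (q threshold 0.01), as their headers state. For H3K27ac and H3K4me1 no header names the caller. The labels name MYC of set D as its own control.

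Regions outside chromosomes 1 to 22 and X were left out, 53 of them from MYC of set D. Distances are the bases between 2 regions. Intervals were computed with scipy 1.17.1 and numpy 2.4.6 under Python 3.11.15, and plots drawn with matplotlib 3.10.9. The code was tested on simulated data and gave the counts of bedtools 2.31.1 for all 30 ordered pairs of lists.

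The peaks, classes and comparisons were chosen with earlier results of these data known. The regions named were the 10 widest, the 10 farthest from both methylation marks, the 10 widest with both other factor lists, the 10 nearest to H3K4me3 as a range, and the 5 acetylated regions with most peaks, ties going to the wider. The longest runs, and the 3 that set C met in full, were named after their values were seen. Gene and sequence tables of another genome build were not used, so the planned gene starts, gene lists and E-box counts were not analysed here. The alternatives concern the overlap rule, distance margins, width, the MYC list and, added after the data were seen, the wider regions of the methylation lists alone, equal widths, chromosomes and the edges of uncovered stretches.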

Additional observations from a re-analysis of the deposited data

How the results depend on the processing

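The H3K27ac-only share of MYC set D, 12.6%, followed the definition of overlap. It was 16.1% by peak centres, 10.8% when H3K27ac had to cover at least 50% of the peak, 8.32% and 5.36% with margins of 1 and 5 kb, 18.5% with the regions of each mark list at or above its median width and 28.0% when this held for the methylation lists alone, an alternative chosen after seeing the data. It was 8.39% among the wider MYC peaks and 11.1% for MYC of set C. Among H3K27ac-only peaks at or above the median width, the share with MYC of set C was 60.4% and that with MYCN 5.28%. Wider peaks overlap other lists more readily by construction. With only the mark regions at or above their median width, the median distance was 128838 bases to H3K4me3 and 13563 bases to H3K4me1. Fewer regions lengthen distances by construction. Joining H3K27ac regions within 1 kb gave 28.8% whose acetylated region met a methylation mark. The excess of MYC set C over H3K27ac/H3K4me1 peaks lay between 13.0 and 14.2 points under 6 alternatives, all chosen after seeing the data, and its interval stayed above 0 in each. Gene starts and E-boxes were not run, and no depth is known that would bound a missing mark.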
